A study of Danio rerio with 6 samples.

Results

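The genes described here are 8 transcription factors that act in photoreceptor fate, crx, otx5, otx2b, nrl, nr2e3, six7, prdm1a and prdm1b, all 8 of which were found among the 25109 genes of the count tables. They were chosen by name, as a group of regulators, and their own UMIs (unique molecular identifiers, 1 per captured RNA molecule) were used in no gate. Single-cell RNA-seq was carried out on eye cells of zebrafish embryos at 48 hpf (hours post fertilisation), in 3 mCherry-enriched and 3 eGFP-enriched libraries sorted by FACS. All embryos were F1 of the line NRE-eGFP/HS5-mCherry and received PTU, which blocks melanin formation, from 12 hpf. Both reporters carry a gata2 promoter and lie in 1 cassette at a single landing site, with HS5 and NRE, a pair of human PAX6 retinal enhancers, driving mCherry and eGFP. F1 embryos came from several founders, eyes of many embryos were pooled for each sort, and no library of unsorted or wild-type cells was used here. The eGFP-enriched cells were positive for eGFP alone, whereas the mCherry-enriched cells could also carry eGFP, and in the first of 3 rounds of sorting they were those positive for both reporters. Of 5606 barcodes with at least 1000 genes and at most 10% mitochondrial UMIs, 425 passed the photoreceptor lineage gate, 926 passed the bipolar gate and 4255 passed neither.

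Photoreceptors and bipolar cells arise from related retinal precursors, and Otx family homeobox factors are used in both. In the mouse, Otx2 starts the photoreceptor programme, Crx activates its genes, Prdm1 holds precursors back from the bipolar fate, and Nrl with its target Nr2e3 sets rods apart from cones. In zebrafish, cones are the first photoreceptors to mature over most of the retina, and six7, a homeobox gene of fish, is needed for the opsins of medium-wavelength cones.

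The photoreceptor lineage gate rested on gngt2a, ly6pge and tulp1a, and required UMIs of at least 2 of them, at least 3 such UMIs in all and a share at least 3 times that in free RNA, read from barcodes of at most 100 UMIs. Photoreceptor lineage cells numbered 23, 16 and 47 in the 3 mCherry-enriched libraries and 144, 3 and 192 in the 3 eGFP-enriched ones. With 3 such cells, eGFP-enriched replicate 2 entered no test of gene levels in them, only the test of their share of kept barcodes. The summed gate genes came to 1501 to 4220 UMIs per 1000000 (CPM) in photoreceptor lineage sums of the 5 other libraries, against 82.6 to 196 CPM in bipolar sums of all 6. Bipolar gate genes were not absent from photoreceptor lineage sums, where they reached 637 to 3145 CPM, against 9378 to 18172 CPM in bipolar sums. Of the 425 cells, 66 also passed another gate and were placed by the higher ratio.

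The libraries of replicate 1 stood apart. Barcodes of more than 50000 UMIs, up to 535007, held 57.7% of the photoreceptor lineage UMIs of mCherry-enriched replicate 1 and 48.0% of those of eGFP-enriched replicate 1, against at most 3.75% in each other library. In the same 2 libraries the ganglion gate, whose cells served as background, held 485 and 532 CPM of crx, against 38.4 to 242 CPM in the other 4. No doublet caller was run. Each comparison was therefore also made with barcodes of at most 50000 UMIs and, except that by division, with replicates 2 and 3 only, both chosen after the data were seen. With replicates 2 and 3 only, few libraries remained, and the test shares spread across genes. Very small p-values of those fits are thus not a measure of a gene's own spread between libraries.

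Across the cell types, the genes other than nrl fell into 3 patterns of level. The levels of crx and otx5 were high in both photoreceptor lineage and bipolar cells, those of six7, nr2e3, prdm1a and prdm1b were highest in photoreceptor lineage cells, and those of otx2b were highest in bipolar cells. Of the UMIs of each gene in all kept barcodes, photoreceptor lineage cells held 46.5% for prdm1a, 37.2% for six7, 36.3% for nr2e3, 28.9% for nrl, 21.5% for prdm1b, 20.8% for otx5, 18.1% for crx and 5.64% for otx2b, while these cells held 7.32% of UMIs of all genes.

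**Figure D1:**
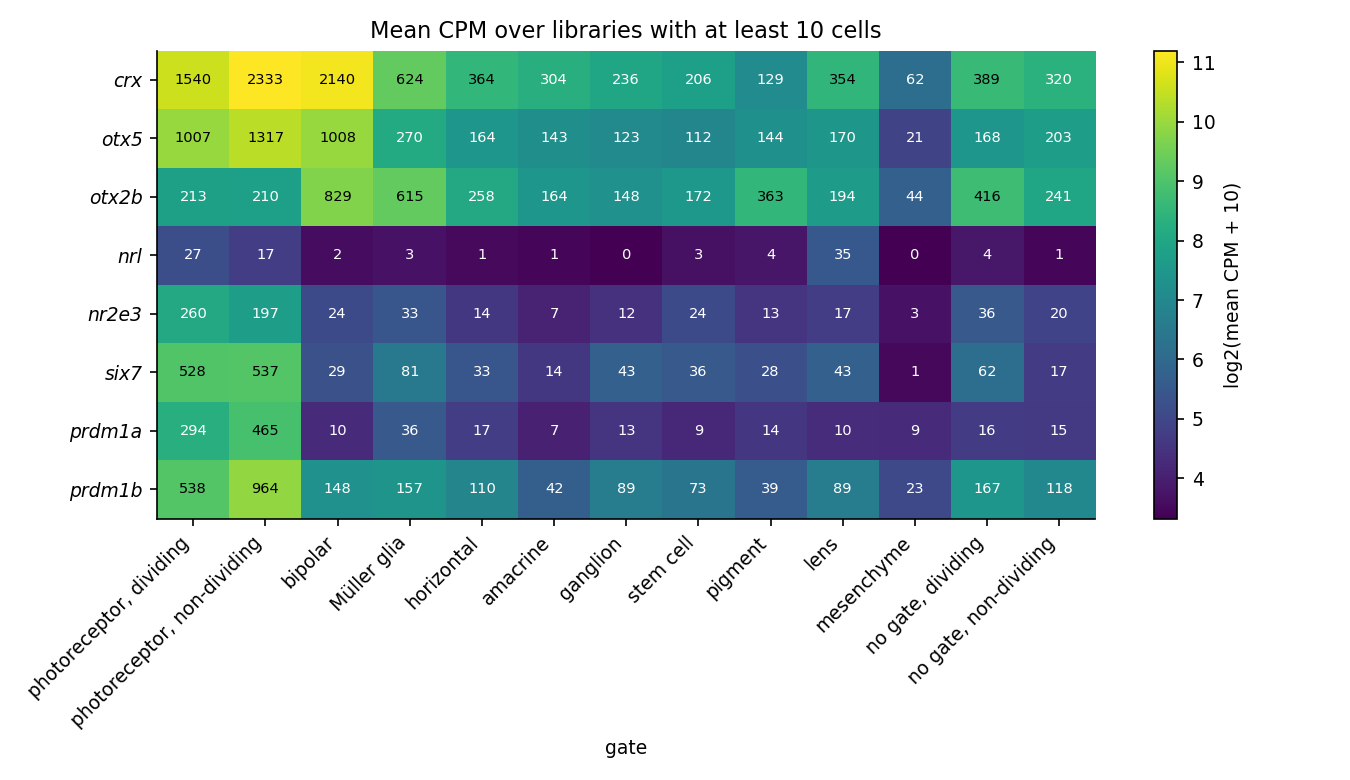
Mean level of the 8 genes (rows) in each gate (columns), as CPM printed in each cell and coloured as log2(mean CPM + 10), over the libraries with at least 10 cells of the gate, without cells between the division calls. The six7 mean was 528 CPM in dividing and 537 CPM in non-dividing photoreceptor lineage cells, and 28.7 CPM in bipolar cells, while otx2b averaged 829 CPM in bipolar cells.

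Crx, the cone-rod homeobox factor that activates genes of photoreceptor function, was measured at 1209, 1973 and 1868 CPM in photoreceptor lineage cells of mCherry-enriched replicates 1 to 3, and at 1286 and 2017 CPM in those of eGFP-enriched replicates 1 and 3. In bipolar cells of the same libraries it was measured at 1766, 2204 and 2482 CPM in mCherry-enriched and at 1590 and 2465 CPM in eGFP-enriched samples. The photoreceptor lineage value was the lower in 5 of 5 libraries, although the ranges of the gates overlapped. The log2 fold change, photoreceptor lineage over bipolar, was -0.31 ± 0.08 (SE), and it passed the test (edgeR quasi-likelihood, adjusted p = 0.0266 over 5347 genes). This call was lost without mCherry-enriched replicate 1 (-0.25, adjusted p = 0.0614), replicate 2 (-0.34, 0.052) or replicate 3 (-0.30, 0.0997), without eGFP-enriched replicate 3 (-0.34, 0.0806), and where gates were read at 1500 UMIs per cell (-0.13, 0.459). It held with barcodes of at most 50000 UMIs (-0.29, 0.0105) and with replicates 2 and 3 only (-0.31, 0.0244).

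Against cells of neither gate, crx was far higher in both lineages. Beside 1209 to 2017 CPM in photoreceptor lineage and 1590 to 2482 CPM in bipolar cells, these cells held 539, 208 and 227 CPM of crx in mCherry-enriched replicates 1 to 3, and 527, 175 and 183 CPM in eGFP-enriched replicates 1 to 3, none of which reached the lowest value of either lineage. The log2 fold change was 2.37 ± 0.35 for photoreceptor lineage cells (5.19-fold, edgeR adjusted p = 0.00208, higher in 5 of 5 libraries). For bipolar cells it was 2.85 ± 0.29 (edgeR adjusted p = 5.41e-05, higher in 6 of 6 libraries). The 33 cells of no gate that fell between the division calls were left out of the orders of levels given here. After the photoreceptor and bipolar gates, the order of mean crx levels ran on with Müller glia at 624 ± 186 CPM (SD, n = 4), dividing cells of no gate at 389 ± 136 CPM (n = 6) and horizontal cells at 364 ± 294 CPM (n = 4), each overlapping the next in range. Mesenchyme came last at 62.3 ± 44.7 CPM (n = 3). Free RNA held 227 to 400 CPM of crx, and in replicates 2 and 3 of both sorts more than cells of neither gate. The part of free RNA in these lower ranks was not tested.

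Otx5, a paralogue of crx in fish that is known from the pineal organ and retina of zebrafish, did not differ detectably between the lineages. Photoreceptor lineage cells held 821, 1147 and 1088 CPM in mCherry-enriched replicates 1 to 3, and 709 and 1219 CPM in eGFP-enriched replicates 1 and 3. Bipolar cells of these libraries held 842, 1028 and 1043 CPM in mCherry-enriched and 742 and 1127 CPM in eGFP-enriched samples, so the ranges overlapped throughout. The log2 fold change was 0.07 ± 0.09 (edgeR adjusted p = 0.536), with the photoreceptor lineage value the higher in 3 of 5 libraries. Free RNA held 216 to 265 CPM of otx5. Against cells of neither gate, which held 76.4 to 276 CPM, otx5 was higher by 2.71 ± 0.38 on the log2 scale in photoreceptor lineage cells (6.56-fold, edgeR adjusted p = 0.00158) and by 2.83 ± 0.32 in bipolar cells (adjusted p = 8.98e-05), in every library compared.

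Otx2b, a zebrafish orthologue of the Otx2 gene that acts early in both lineages and in pigment epithelium, was lower in photoreceptor lineage than in bipolar cells. It was measured at 513, 182 and 62.2 CPM in photoreceptor lineage cells of mCherry-enriched replicates 1 to 3, and at 318 and 47.8 CPM in those of eGFP-enriched replicates 1 and 3. In bipolar cells the values were 1107, 801 and 890 CPM in mCherry-enriched and 728 and 744 CPM in eGFP-enriched samples. The gates did not overlap, and the photoreceptor lineage was lower in 5 of 5 libraries. The log2 fold change was -2.34 ± 0.49 (edgeR adjusted p = 0.0148), a level 5.06-fold lower, and with replicates 2 and 3 only it was -3.57 ± 0.20 (adjusted p = 1.5e-21).

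The spread of otx2b among photoreceptor lineage sums moved with the bipolar gate genes in them. In the libraries with 513 and 318 CPM of otx2b, both of replicate 1, all 6 bipolar gate genes were detected and summed to 3145 and 2298 CPM. In the libraries with 62.2 and 47.8 CPM they were all detected too but summed to 637 and 694 CPM, and in the library with 182 CPM they summed to 1608 CPM. Free RNA of mCherry-enriched and eGFP-enriched replicate 3 held 208 and 188 CPM of otx2b, more than the 62.2 and 47.8 CPM in their photoreceptor lineage cells. The part of other cells' RNA in these otx2b values was not tested. Against cells of neither gate, which held 155 to 477 CPM, otx2b in photoreceptor lineage cells differed by -0.74 ± 0.33 on the log2 scale, which missed the threshold (edgeR adjusted p = 0.151), whereas with replicates 2 and 3 only it was lower by 1.52 ± 0.24, a log2 fold change of -1.52 (adjusted p = 2.75e-05). Bipolar cells were higher than cells of neither gate by 1.59 ± 0.17 (adjusted p = 7.6e-05, 6 of 6 libraries). Müller glia, at 615 ± 177 CPM (SD, n = 4), dividing cells of no gate, at 416 ± 110 CPM (n = 6), and pigment cells, at 363 ± 56.2 CPM (n = 3), followed the bipolar gate in order of mean, with overlapping ranges between neighbours.

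**Figure D2:**
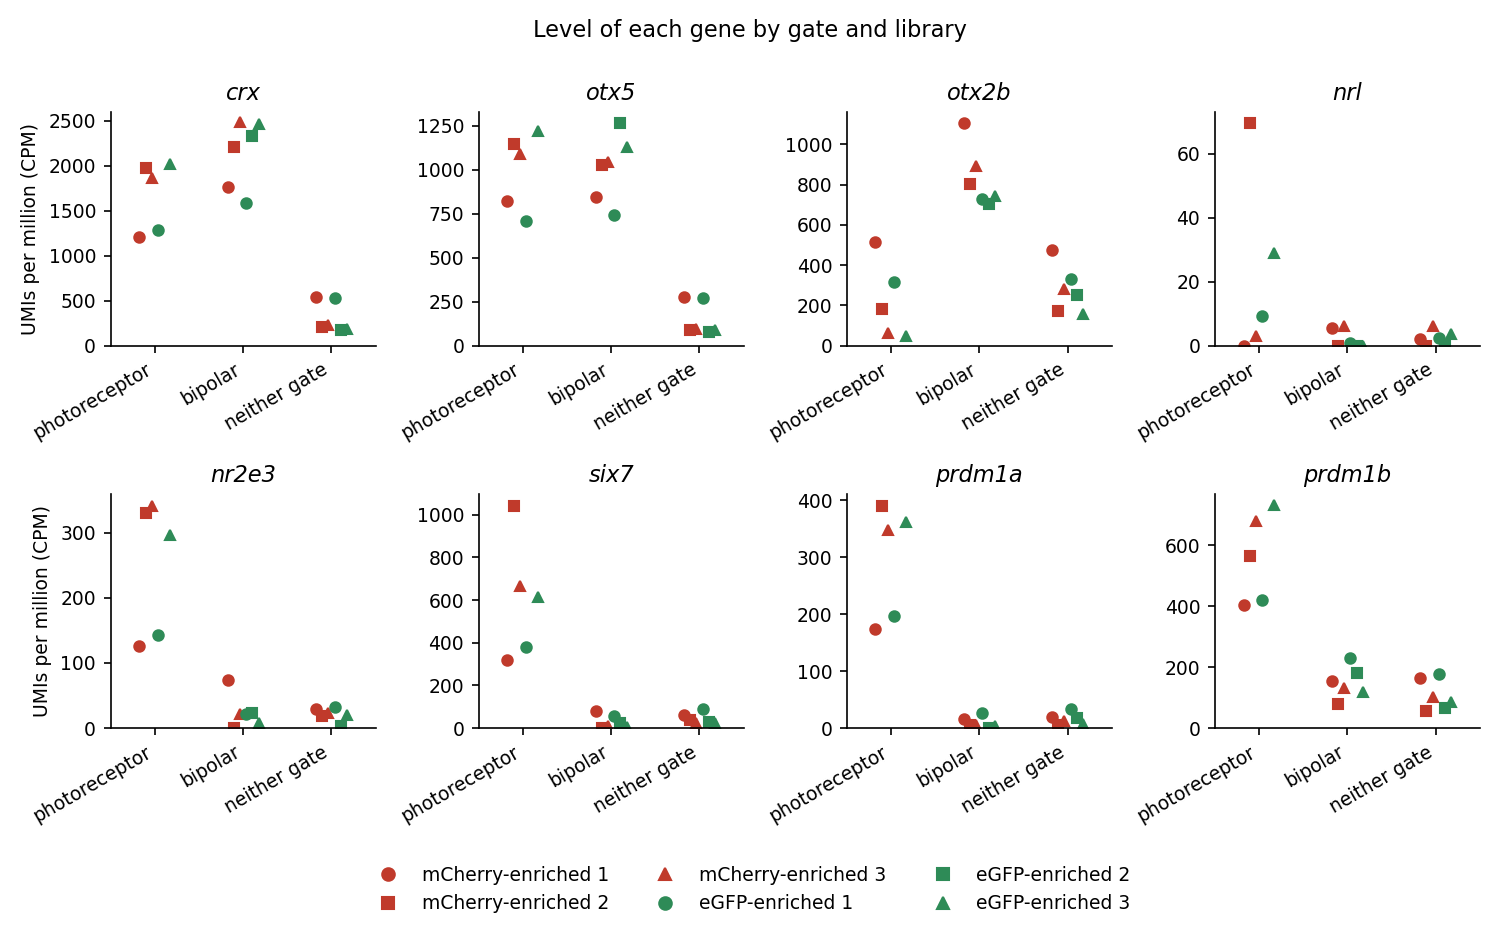
CPM of each gene (vertical axis, from 0) in photoreceptor lineage cells, bipolar cells and cells of neither gate (horizontal axis), 1 point per library with at least 10 cells, coloured by sort and shaped by replicate. The 5 photoreceptor lineage points of six7 sit between 321 and 1043 CPM, above all points of the other gates, while those of otx2b, 47.8 to 513 CPM, sit below all bipolar points.

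Six7, prdm1a, prdm1b and nr2e3 were higher in photoreceptor lineage than in bipolar sums in each of the 5 libraries compared. All but prdm1b could enter this test through their photoreceptor lineage sums alone, so their p-values against bipolar cells are given as a description. Six7 was measured at 321, 1043 and 665 CPM in photoreceptor lineage cells of mCherry-enriched replicates 1 to 3, and at 382 and 616 CPM in those of eGFP-enriched replicates 1 and 3. Bipolar cells held 78.9, 0 and 9.05 CPM of six7 in the same mCherry-enriched samples and 56.9 and 4.67 CPM in the eGFP-enriched ones, the count of 0 in replicate 2 allowing up to 15.8 CPM. No bipolar value came near a photoreceptor lineage value, and the log2 fold change was 4.43 ± 0.88 (21.6-fold, edgeR adjusted p = 0.013). Its size depended on the libraries, at 5.26 without mCherry-enriched replicate 1, 5.23 without eGFP-enriched replicate 1 and 3.72 without eGFP-enriched replicate 3, and at 7.01 ± 0.26 with replicates 2 and 3 only (adjusted p = 1.11e-27). Free RNA held 16.6 to 46.3 CPM of six7, and the bipolar level lay above that of the same library's free RNA in both libraries of replicate 1 and, by 1 UMI in 11 cells, in eGFP-enriched replicate 2 (22.6 CPM against 17.2 CPM).

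Prdm1a and prdm1b are the zebrafish genes for Prdm1, a zinc finger repressor that keeps mouse photoreceptor precursors from turning into bipolar cells. Prdm1a was measured at 175, 391 and 348 CPM in photoreceptor lineage cells of mCherry-enriched replicates 1 to 3 and at 197 and 362 CPM in those of eGFP-enriched replicates 1 and 3, against 3.34 to 26.1 CPM in bipolar cells of the same libraries. Its log2 fold change of 4.50 ± 0.58 (22.6-fold, edgeR adjusted p = 0.00565) was the largest among the 7 genes tested in this comparison, though close to that of six7 (4.43 ± 0.88). For prdm1a it was 5.33 without eGFP-enriched replicate 1 and 3.85 without eGFP-enriched replicate 3. Prdm1b was measured at 402, 565 and 678 CPM in photoreceptor lineage cells of the mCherry-enriched samples and at 421 and 732 CPM in those of the eGFP-enriched ones. Its bipolar level was 79.1 to 228 CPM, so that the log2 fold change was smaller, at 2.0 ± 0.31 (4.00-fold, adjusted p = 0.008). For neither gene did the ranges of the gates overlap.

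Nr2e3, a nuclear receptor that represses cone genes in mouse rods, was measured at 126, 330 and 342 CPM in photoreceptor lineage cells of mCherry-enriched replicates 1 to 3 and at 143 and 297 CPM in those of eGFP-enriched replicates 1 and 3. Bipolar cells held 0 to 73.4 CPM in the same libraries, below every photoreceptor lineage value. The log2 fold change was 3.38 ± 0.71 (10.4-fold, edgeR adjusted p = 0.0152), and without mCherry-enriched replicate 3 it was 3.25 with an adjusted p of 0.0505. It was 4.18 without mCherry-enriched replicate 1, 2.78 without eGFP-enriched replicate 3, and 5.06 ± 0.28 with replicates 2 and 3 only (adjusted p = 3.54e-21).

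Of the 7 genes that entered the comparison with bipolar cells, 4 were higher and 2 lower in photoreceptor lineage cells, beside 16.7% of all 5347 genes that were higher and 16.2% that were lower. The median log2 fold change was 2.0 over the 7 genes and 0.00 over all genes. Six7, nr2e3 and prdm1a were low in bipolar cells and could enter through their photoreceptor lineage sums alone. Nothing is therefore read from their common direction in this count and median, nor from their p-values in this comparison. The genes called numbered 1762 in all, 708 without mCherry-enriched replicate 3 and 623 without eGFP-enriched replicate 3. Nrl was too low to enter.

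Against cells of neither gate the same 4 genes were higher in photoreceptor lineage cells in 5 of 5 libraries, without overlap. The log2 fold changes were 4.20 ± 0.48 for prdm1a (18.3-fold, edgeR adjusted p = 0.000729), 3.67 ± 0.45 for six7 (12.8-fold, adjusted p = 0.00103), 3.12 ± 0.32 for nr2e3 (8.67-fold, adjusted p = 0.000453) and 2.26 ± 0.31 for prdm1b (4.77-fold, adjusted p = 0.00147). With crx and otx5, 6 of the 7 genes tested were higher and none was lower, beside 9.22% and 9.89% of all 9303 genes. The median log2 fold change was 2.71 over the 7 genes and -0.06 over all genes. All genes called numbered 1778, against 909 without mCherry-enriched replicate 3, 996 without eGFP-enriched replicate 3 and 2941 with replicates 2 and 3 only.

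In bipolar cells against cells of neither gate, 3 of the 7 genes tested were higher, crx, otx5 and otx2b, and none was lower, beside 18.9% higher and 22.5% lower of all 7578 genes. The scaling mattered for that background, since with RLE size factors the median of all genes was -0.18 in place of -0.04 and 33.5% of the calls were higher in place of 45.7%. Six7 had a log2 fold change of -0.87 ± 0.37 (edgeR adjusted p = 0.0774), prdm1a of -0.58 ± 0.27 (0.0967), prdm1b of 0.35 ± 0.15 (0.083) and nr2e3 of -0.27 ± 0.41 (0.631). All genes called numbered 3143, and 1766 without eGFP-enriched replicate 3. The side of the threshold on which these 4 genes fell depended on libraries and settings. Without mCherry-enriched replicate 1, six7 passed at -1.40 (adjusted p = 0.0095) and prdm1b at 0.46 (0.0495), and with RLE size factors six7 passed at -1.01 (0.0481) and prdm1a at -0.71 (0.0496). With replicates 2 and 3 only, six7 (-2.29, adjusted p = 3.8e-06) and nr2e3 (-1.19, 0.00763) were lower and prdm1b (0.40, 0.0453) was higher in bipolar cells.

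**Figure D3:**
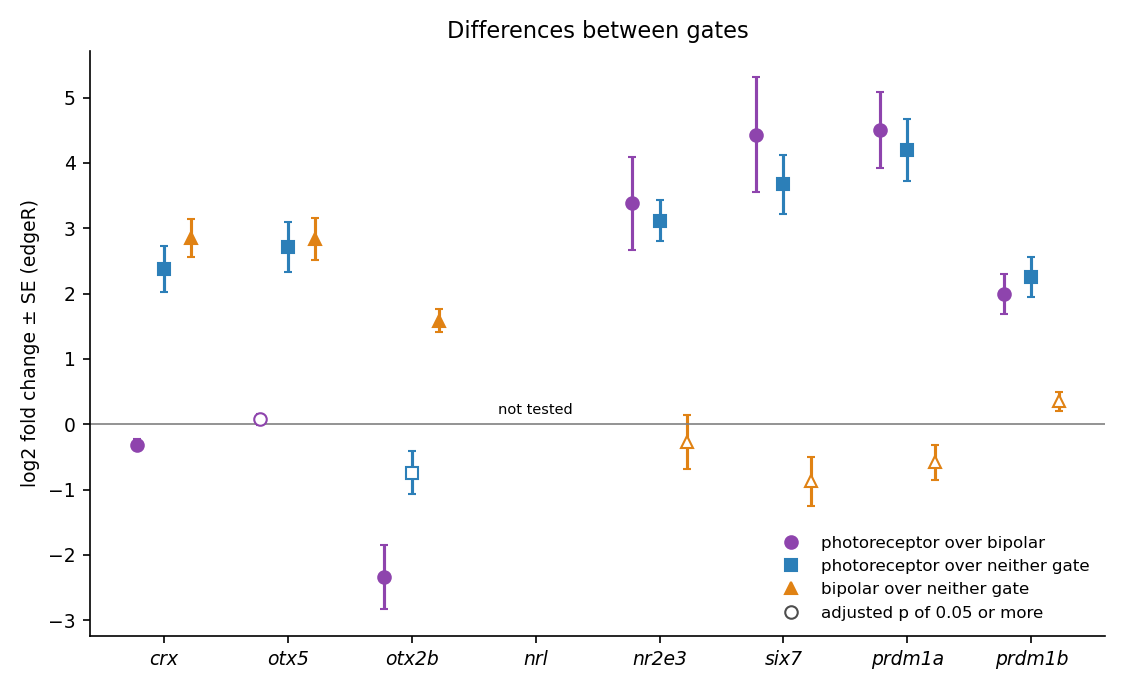
Log2 fold change (vertical axis) of each gene (horizontal axis) from edgeR, with bars of 1 SE, for photoreceptor lineage over bipolar cells, photoreceptor lineage cells over cells of neither gate, and bipolar cells over cells of neither gate. Open symbols missed the adjusted p threshold. Crx (2.37 and 2.85) and otx5 (2.71 and 2.83) were high in both lineages, otx2b was lower in photoreceptor lineage than in bipolar cells (-2.34), and nrl was not tested.

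Beyond the photoreceptor gate, the levels of six7, nr2e3 and prdm1a were lower in the other gates of the order. For six7 the order of mean levels was 537 ± 274 CPM in non-dividing (SD, n = 2) and 528 ± 172 CPM in dividing photoreceptor lineage cells (n = 5), then 81.3 ± 48.6 CPM in Müller glia (n = 4) and 61.7 ± 32.6 CPM in dividing cells of no gate (n = 6). For prdm1a the corresponding means were 465 ± 135, 294 ± 111, 36.4 ± 16.9 and 15.9 ± 9.57 CPM. For nr2e3 they were 197 ± 166, 260 ± 119, 32.9 ± 7.03 and 36.1 ± 21.1 CPM. In each of these genes the ranges of both photoreceptor gates overlapped, and neither overlapped the gate next in order. Among the cells left out of the order, nr2e3 was 9.78 CPM in 16 cells of eGFP-enriched replicate 1 and 148 CPM in 10 cells of eGFP-enriched replicate 3, the last within the range of both photoreceptor gates. All gates below them overlapped their neighbours. Free RNA held 17.5 to 46.4 CPM of nr2e3 and 7.87 to 30.9 CPM of prdm1a. The nr2e3 means of Müller glia and dividing cells of no gate and the prdm1a mean of 15.9 CPM lay within these ranges. The six7 means of those gates and the 36.4 CPM of prdm1a lay above free RNA. For prdm1b the means were 964 ± 203 CPM in non-dividing (n = 2) and 538 ± 146 CPM in dividing photoreceptor lineage cells (n = 5), a difference that missed the test within libraries (log2 fold change, dividing over non-dividing, -0.45 ± 0.39, edgeR adjusted p = 0.83), and dividing cells of no gate held 167 ± 52.2 CPM (n = 6).

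Nrl, the leucine zipper factor that commits mouse precursors to the rod fate, was rare. It had 81 UMIs in 425 photoreceptor lineage cells, of which 0, 8 and 1 were in mCherry-enriched replicates 1 to 3 and 29, 0 and 43 in eGFP-enriched replicates 1 to 3. That came to 0 to 69.5 CPM in the 5 libraries with at least 10 cells, against 0 to 6.03 CPM in bipolar cells of the same libraries and 0 to 6.11 CPM in cells of neither gate, so the ranges overlapped. The count of 0 in mCherry-enriched replicate 1 allows up to 4.26 CPM. Free RNA held 0 to 1.82 CPM of nrl. The other gate in which nrl was found at a like level was the lens, at 0 and 70.1 CPM in the 2 libraries with at least 10 lens cells. Of the 280 nrl UMIs in kept barcodes, 100 were in 31 dividing cells of no gate and 20 in 8 lens cells.

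Cells with nrl UMIs were few, and their other regulators are given as a description. All 17 photoreceptor lineage cells with an nrl UMI also had an nr2e3 UMI, and 8 of the 17 had a six7 UMI, whereas 283 of the 408 cells without nrl had nr2e3 and 295 had six7. Median depth was 11254 UMIs in the 17 cells and 7221 UMIs in the 408. Among barcodes of at most 50000 UMIs, pooled nr2e3 was 621 CPM in 14 cells with nrl and 208 CPM in 392 cells without, while six7 was 117 and 591 CPM and prdm1a 117 and 309 CPM in that order of cells. Crx, at 1958 and 1706 CPM, and prdm1b, at 598 and 658 CPM, lay closer together. In eGFP-enriched replicate 3, which held 8 of the 14 cells, nr2e3 was 821 and 273 CPM and six7 38.5 and 662 CPM with and without nrl. In eGFP-enriched replicate 1, with 4 of them, nr2e3 was 234 and 134 CPM and six7 234 and 488 CPM. These cells were picked by their nrl UMIs after the data were seen, come mostly from 2 libraries, and allow no test over libraries.

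**Figure D4:**
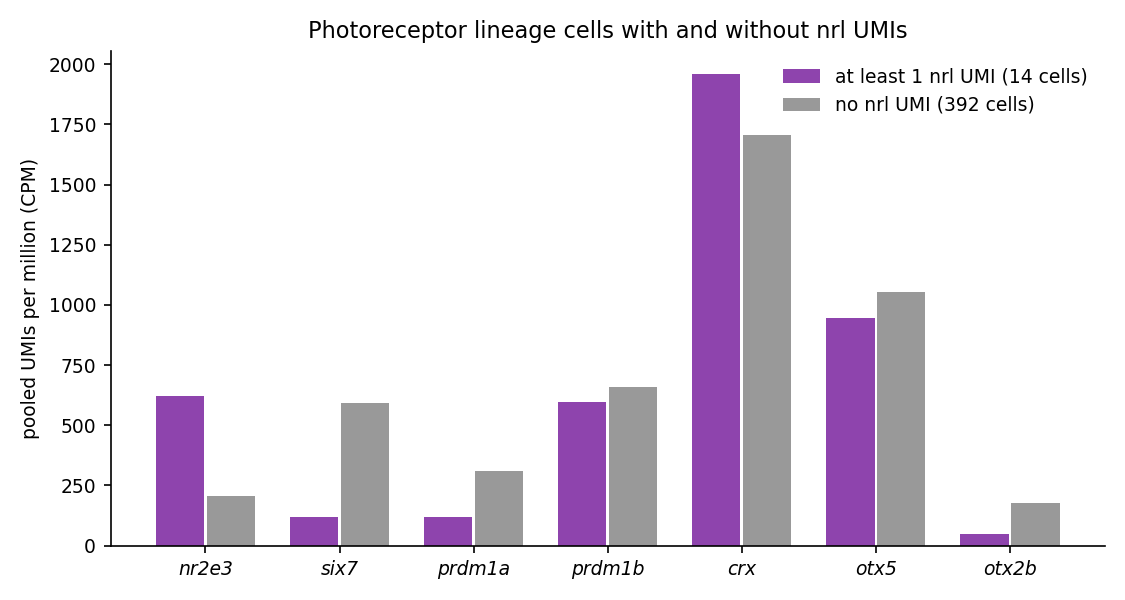
Pooled CPM (vertical axis, from 0) of the 7 other genes (horizontal axis) in photoreceptor lineage cells of at most 50000 UMIs, for 14 cells with at least 1 nrl UMI and 392 cells with none, without error bars because cells were pooled over libraries. Nr2e3 stands at 621 CPM with nrl and 208 CPM without, and six7 at 117 CPM with nrl and 591 CPM without.

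Detection per cell was compared at 1 fixed depth. Median depth was 7430 UMIs in photoreceptor lineage, 3840 UMIs in bipolar and 7234 UMIs in ganglion cells, the background class. With every cell thinned to 1500 UMIs, for which no cell was too shallow, six7 was detected in 44.0% of photoreceptor lineage cells (95% exact binomial interval 39.2 to 48.9%), 2.59% of bipolar cells and 4.05% of ganglion cells. Prdm1a was detected in 33.6%, 1.51% and 2.55% of those cells, nr2e3 in 26.4%, 2.27% and 1.65%, and prdm1b in 62.8%, 17.8% and 8.26%. Crx was detected in 86.8% of photoreceptor lineage, 94.6% of bipolar and 21.9% of ganglion cells. For otx2b the shares were 15.8% in photoreceptor lineage cells (12.4 to 19.6%), 55.5% in bipolar cells and 15.3% in ganglion cells. These pooled otx2b shares mix libraries in unequal parts. Within libraries the photoreceptor lineage share was above the ganglion share in 6 of 6, but it often rested on few cells and was not tested. The shares were 43.5% against 31.6%, 18.8% (of 16 cells) against 14.3%, and 6.38% against 2.86% in mCherry-enriched replicates 1 to 3. In eGFP-enriched replicates 1 to 3 they were 30.6% against 26.6%, 33.3% (of 3 cells) against 7.69%, and 3.13% against 1.82%. These intervals cover counting error only. Without thinning, the photoreceptor lineage, bipolar and ganglion shares were 71.3%, 7.56% and 13.4% for six7, 79.8%, 6.26% and 9.91% for prdm1a, 70.6%, 6.70% and 9.46% for nr2e3, 95.3%, 39.5% and 25.7% for prdm1b, 98.1%, 99.5% and 44.0% for crx, and 39.8%, 82.3% and 33.9% for otx2b.

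Within the 425 photoreceptor lineage cells, joint detection without thinning is given beside each gene's share of all 425. Crx and otx5 were detected together in 410 cells, and otx5 was in 98.3% of cells with crx and 97.9% of all. Prdm1a and prdm1b were together in 330 cells, with prdm1b in 97.3% of cells with prdm1a and 95.3% of all. Six7 and prdm1a were together in 255 of the 303 cells with six7 and the 339 with prdm1a. Prdm1a was in 84.2% of cells with six7 and 79.8% of all. Nr2e3 was found in 213 of the 303 cells with six7, or 70.3%, close to its share of 70.6% in all 425. Otx2b was found in 169 cells, of which 18 of 23 were in mCherry-enriched replicate 1 and 96 of 144 in eGFP-enriched replicate 1, against 12 of 47 in mCherry-enriched replicate 3 and 33 of 192 in eGFP-enriched replicate 3. The photoreceptor lineage cells of replicate 1 were also deeper, with medians of 19567 and 10059 UMIs, against 5896 and 6323 UMIs in replicate 3.

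Dividing photoreceptor lineage cells, with at least 1 UMI of mki67, a marker of cycling cells, or 3 of pcna, a replication factor, were compared with non-dividing ones, with no mki67 and at most 1 pcna UMI. The gate set 329 cells of median depth 8810 UMIs against 92 cells of median depth 4333 UMIs, and 4 cells fell between. A call of division by 1 UMI depends on depth, and 282 of 666 ganglion cells also passed it. Only eGFP-enriched replicates 1 and 3 held 10 cells in both gates, so the fit had 2 libraries and 1 residual degree of freedom. None of the 8 genes passed in it (edgeR adjusted p of 0.798 to 0.999, with 0 of 8 at an unadjusted p under 0.05, and 0 of 8 under DESeq2), beside 5.49% of all 6007 genes. On simulated data of this design, 36.5% of genes changed 4-fold were recovered.

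The levels by division are therefore given for the 4 libraries with at least 5 cells in both gates. Crx was measured at 1596 and 1765 CPM in dividing cells of mCherry-enriched replicates 2 and 3 and at 1277 and 1849 CPM in those of eGFP-enriched replicates 1 and 3, against 2988 and 2225 CPM and 2057 and 2610 CPM in non-dividing cells of those libraries. The dividing value was the lower in each of the 4. Prdm1b, at 488, 682, 412 and 705 CPM in dividing cells of these libraries against 771, 599, 1108 and 821 CPM in non-dividing cells, was lower in 3 of 4. Six7, at 739, 615, 382 and 582 CPM in dividing cells against 1864, 599, 343 and 731 CPM in non-dividing cells, had no common direction. Otx2b, at 155, 30.2, 318 and 47.4 CPM in dividing cells against 257, 214, 369 and 49.8 CPM in non-dividing cells, was lower in 4 of 4. The fit to 2 libraries nonetheless gave it a log2 fold change of 0.20 ± 0.51. That fit scaled the sums by TMM, whereas these CPM are not so scaled. Directions of the levels and of the fit can therefore differ, for the other genes too. Of the 8 genes, crx and otx2b were the ones lower in dividing cells of all 4 libraries. The share of all genes lower in all 4 was not counted, so nothing is read from this number. The otx2b direction rests on few UMIs, however. Its non-dividing sums held 8, 10, 14 and 16 UMIs, against 93, 104, 78 and 839 UMIs for crx. In eGFP-enriched replicate 3 the otx2b levels were also close, at 47.4 and 49.8 CPM. Nr2e3 was at 369, 370, 143 and 292 CPM in dividing cells, against 225, 193, 79.1 and 314 CPM in non-dividing cells. It was thus higher in 3 of 4, but its non-dividing sums in those libraries held only 7, 9 and 3 UMIs. For otx5 the mCherry-enriched and eGFP-enriched libraries went opposite ways, with 1251, 1097, 703 and 1158 CPM in dividing cells against 868, 898, 1213 and 1421 CPM in non-dividing cells. The log2 fold change of crx, dividing over non-dividing, was -0.25 ± 0.33 in the 2 libraries with at least 10 cells, with a median of 0.14 over all genes and of -0.06 over the 8. With libraries of at least 5 cells it was -0.48 (edgeR adjusted p = 0.0237), and with division called by the share of mki67 and pcna in a cell's UMIs it was -0.42 (adjusted p = 0.00705), both settings chosen after the data were seen. Six7 had -0.53 (adjusted p = 0.0464) under the last setting and -0.28 (0.589) with at least 5 cells. No other gene of the 8 passed under any setting run. With division called by share of UMIs, more of all genes were called than in the main fit.

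**Figure D5:**
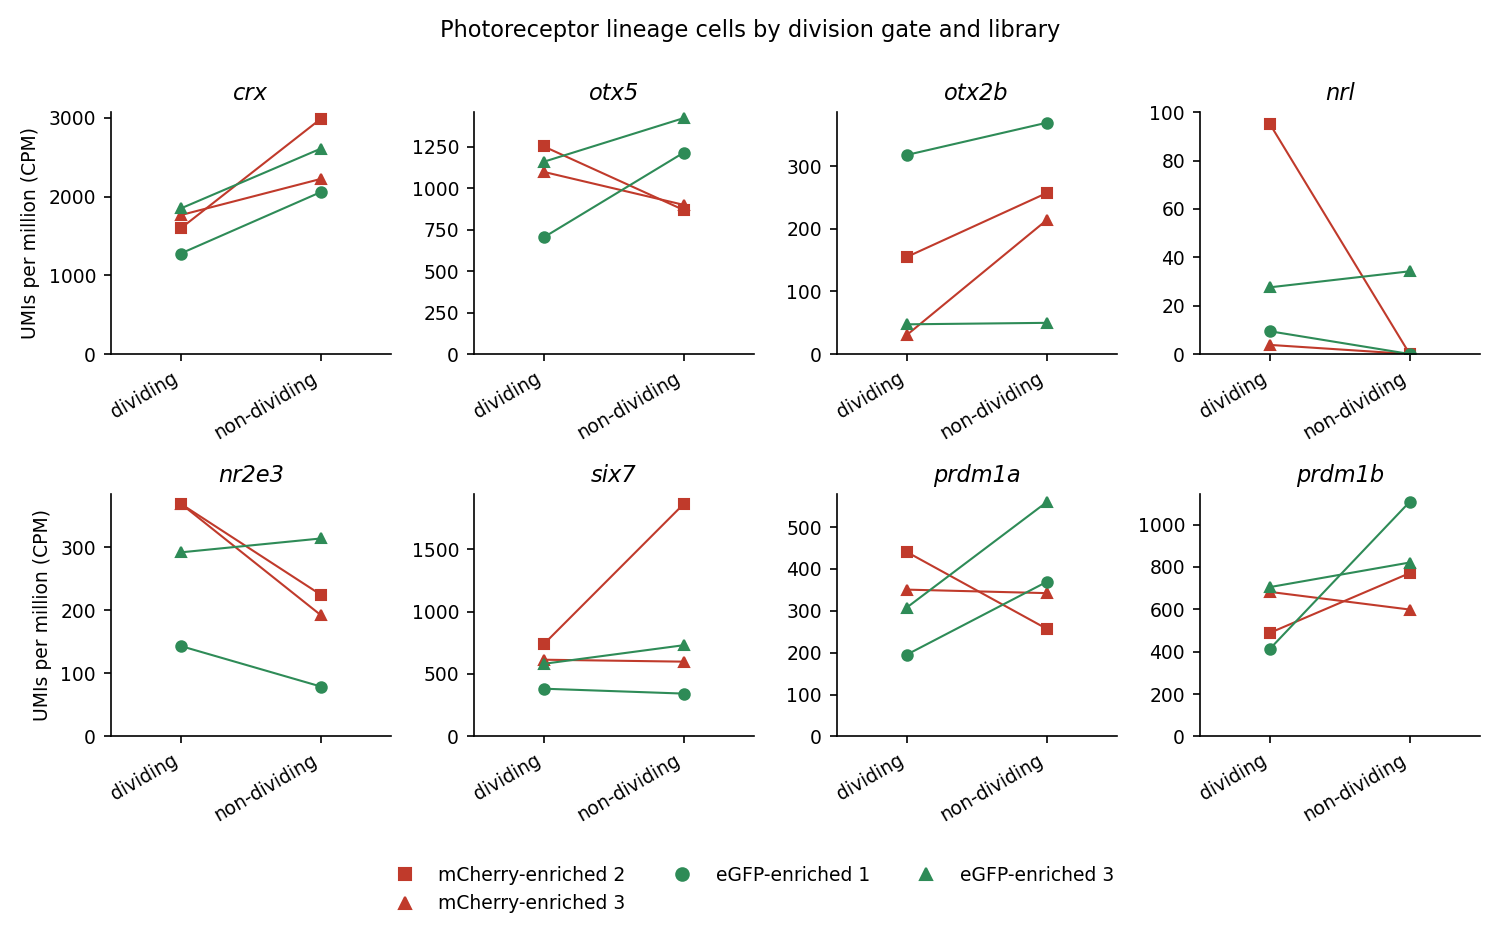
CPM of each gene (vertical axis, from 0) in dividing and non-dividing photoreceptor lineage cells (horizontal axis), with a line for each of the 4 libraries that held at least 5 cells of both gates. Crx lay lower in dividing cells in all 4 libraries, at 1277 to 1849 CPM, against 2057 to 2988 CPM in non-dividing cells. These CPM are not scaled by TMM.

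Thinned to 1500 UMIs, detection in dividing and non-dividing photoreceptor lineage cells was 84.8% and 93.5% for crx, 30.4% and 46.7% for prdm1a, 43.5% and 45.7% for six7, 26.1% and 26.1% for nr2e3, and 18.2% and 6.52% for otx2b. The exact 95% intervals were 25.5 to 35.7% and 36.3 to 57.4% for prdm1a and 14.2 to 22.8% and 2.43 to 13.7% for otx2b. They count cells pooled over libraries, cover counting error only and are no test between the gates. Of the 92 non-dividing cells, 66 came from eGFP-enriched replicate 3, the library with the lowest otx2b, within which otx2b was 47.4 CPM in dividing and 49.8 CPM in non-dividing cells. Prdm1a was measured at 441, 351, 195 and 308 CPM in dividing cells of the 4 libraries, against 257, 342, 369 and 560 CPM in non-dividing cells, and so had no common direction. Without thinning, the shares in dividing and non-dividing cells were 98.2% and 97.8% for crx, 80.2% and 78.3% for prdm1a, 74.8% and 58.7% for six7, 73.9% and 57.6% for nr2e3, and 43.8% and 25.0% for otx2b.

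The sorts were compared within photoreceptor lineage cells, since HS5-active and NRE-active cells were the populations the series set against each other. Photoreceptor lineage cells made up 7.11 ± 0.90% of kept barcodes in mCherry-enriched and 6.32 ± 2.50% in eGFP-enriched libraries (SD, n = 3 each), a difference of 0.79 percentage points (exact two-sided permutation test, p = 0.8, where the smallest possible is 0.1), which was -0.61 without eGFP-enriched replicate 2. Crx averaged 1683 ± 414 CPM in mCherry-enriched (SD, n = 3) and 1652 ± 517 CPM in eGFP-enriched photoreceptor lineage cells (n = 2). Six7 averaged 676 ± 361 and 499 ± 166 CPM in these sorts, and nr2e3 266 ± 121 and 220 ± 109 CPM. Among the 5 libraries tested, that of replicate 1 was the lowest of its sort in crx, otx5, nr2e3, six7, prdm1a and prdm1b and the highest in otx2b. None of the 8 genes passed (edgeR adjusted p of 1 for each), beside 0% of 6139 genes, of which 37 had an unadjusted p under 0.05. DESeq2 made 0 calls as well, and 16 genes passed without the filter on low counts. None of these fits paired the libraries by replicate number. On simulated data of this design, 28.4% of genes changed 4-fold were recovered, so differences between the sorts of 4-fold or less could be missed. The difference between photoreceptor lineage and bipolar cells did not depend detectably on the sort in any of the 7 genes (edgeR interaction, adjusted p of 1 and unadjusted p of 0.567 to 0.996).

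Other regulators of photoreceptor fate were taken from a list of 15 genes. In photoreceptor lineage against bipolar cells, 5 of the 12 tested were higher and 3 lower, beside 16.7% and 16.2% of all genes, with a median log2 fold change of 1.00 (0.00 over all genes). Thrb, the thyroid hormone receptor of red cones, held 425 ± 335 CPM in photoreceptor lineage against 15.8 ± 13.4 CPM in bipolar cells (SD, n = 5; log2 fold change 4.22 ± 0.64, edgeR adjusted p = 0.00791). Samd7, which in the mouse silences genes of other fates in rods, had a log2 fold change of 4.10 ± 0.72 (adjusted p = 0.0105), foxq2, a factor of zebrafish blue cones, of 4.02 ± 0.52 (0.00565), and rx2, a retinal homeobox gene, of 3.65 ± 0.77 (0.0152). With thrb, these genes averaged 15.8 (thrb), 10.9 (samd7), 5.47 (foxq2) and 3.53 CPM (rx2) in bipolar cells. They could pass the filter on low counts through photoreceptor lineage sums alone, so nothing is read from this count and median. Against cells of neither gate, 6 of 13 were higher and 0 lower, beside 9.22% and 9.89% of all genes, with a median of 0.21 (-0.06 over all genes), led by samd7 (3.54 ± 0.39, adjusted p = 0.000601) and foxq2 (3.48 ± 0.32, 0.000277). Between the sorts 0 of 13 passed, beside 0% of all 6139 genes. By division, 1 of 13 passed, beside 5.49% of all 6007 genes, and nothing is read from this count. It was mef2cb, at 7.89 ± 1.03 CPM in dividing and 62.9 ± 23.0 CPM in non-dividing cells (SD, n = 2, -2.45 ± 0.74, edgeR adjusted p = 0.0205). The non-dividing sums held 37912 and 321509 UMIs in eGFP-enriched replicates 1 and 3, so the mef2cb level there rests on few UMIs. The fit by division had 2 libraries only.

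Of 12 regulators of other retinal fates, 9 were tested against bipolar cells, and 0 were higher and 5 lower in photoreceptor lineage cells, beside 16.7% and 16.2% of all genes, with a median log2 fold change of -1.52. Isl1, a LIM homeobox gene of bipolar, amacrine and ganglion cells, held 126 ± 99.9 CPM in photoreceptor lineage against 872 ± 207 CPM in bipolar cells (SD, n = 5; log2 fold change -3.10 ± 0.65, edgeR adjusted p = 0.0148). Lhx4, another LIM homeobox gene, held 169 ± 37.7 CPM in photoreceptor lineage against 493 ± 126 CPM in bipolar cells (-1.52 ± 0.16, adjusted p = 0.00462) but was higher in photoreceptor lineage cells than in cells of neither gate (1.61 ± 0.28, adjusted p = 0.00466). Vsx1 and bhlhe23 were lower as well, but both served in the bipolar gate, so nothing is read from the count and median against bipolar cells. Against cells of neither gate 2 of 12 were higher and 5 lower, beside 9.22% and 9.89% of all genes. Among the lower was atoh7, a proneural gene of ganglion cell fate (-2.37 ± 0.56, edgeR adjusted p = 0.0188). Onecut1 was lower too, but it served in the horizontal gate, whose cells are among those of neither gate, so nothing is read from this count either. By division 0 of 9 passed, beside 5.49% of all genes, and between the sorts 0 of 10, beside 0%.

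Of 28 phototransduction genes, 3 passed the filter on low counts for the comparison with bipolar cells and 4 for that with cells of neither gate. Since such genes can pass through the photoreceptor lineage sums alone, nothing is read from their common direction, and their values are given as a description. Opn6a, an opsin gene, held 252 ± 175 CPM in photoreceptor lineage cells against 7.33 ± 3.31 CPM in bipolar cells (SD, n = 5; log2 fold change 4.64 ± 0.31, edgeR adjusted p = 0.00132). Rcvrn2, a recoverin that senses calcium, had 4.38 ± 0.72 (adjusted p = 0.0096) and pde6gb, a subunit of the phosphodiesterase, 2.32 ± 0.36 (0.008). Pde6gb was not confined to photoreceptor lineage cells, with 1293 ± 795 CPM there, 247 ± 131 CPM in bipolar cells and 563 ± 120 CPM in cells of neither gate. Over cells of neither gate its log2 fold change was 0.95 ± 0.25 (edgeR adjusted p = 0.0279). By division 0 of 5 passed, beside 5.49% of all genes, and between the sorts 0 of 7, beside 0%. These lists were drawn up with earlier results of the same data known and are not independent evidence of direction.

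The genes whose levels ran most like those of each regulator were read as Pearson correlations of log2(CPM + 10) over 57 sums of a gate in a library, among 5348 genes. The sums share libraries, depth and free RNA, and the coefficients are given as a description. Crx was most like otx5 (r = 0.96), and otx5 most like crx. Otx2b was most like sept4a (0.94), followed by the bipolar gate gene vsx1 (0.86). Six7 was most like RASSF5 (0.92) and prdm1a (0.90), prdm1a most like zgc:112294 and kif19 (0.94 each), and nr2e3 most like the photoreceptor gate gene gngt2a (0.86), six7 (0.85) and prdm1a (0.85). Prdm1b was most like zbtb18 (0.85), followed by crx (0.85) and otx5 (0.84). Nrl had no close match, with tmem135 at 0.69.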

How the data were processed

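Raw UMI counts per gene and barcode, which the authors deposited for all barcodes without normalisation, were used. The authors made them from 10x 3′ libraries with Cell Ranger 6.1.2 per the labels (the matrix headers name Cell Ranger 4) on GRCz11 with eGFP and mCherry added. The 8 genes, the gates and the gene lists were chosen with earlier results of these data known. The study's cell annotation was not used, so gates, those of other cell types included, are marker rules, and a cell that passed several went to the highest ratio. The libraries held 14307132 to 86803928 UMIs, and 85 to 2303 barcodes were kept. Between pairs of libraries at most 1 kept barcode was shared.

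UMIs were summed per library and gate with at least 10 cells and tested with edgeR 4.0.16 (TMM, filterByExpr, quasi-likelihood, library as a covariate between gates, Benjamini-Hochberg over all genes tested, calls under 0.05) in R 4.3.3. SE was the log2 fold change over the root of F. Each library pooled embryos. Between gates, p-values set the difference within a library against its variation from library to library. For the sorts they set it against the spread between libraries. Either spread may be technical. EdgeR draws each gene's spread towards that of all genes. Very small p-values from few libraries therefore do not measure the spread of that gene alone. DESeq2 1.42.0 and the settings of the closing section were alternatives. Named were the 8 genes, up to 4 called genes per list with the largest change, and the 3 most like genes. Tested on simulated data with 4-fold changes, 99.4% were recovered for photoreceptor lineage against bipolar cells (4893 genes), but 28.4% for the sorts (5747 genes). Of the calls on simulated data, 8.11% were false for photoreceptor lineage against bipolar cells. The false share was 10.8% for photoreceptor lineage and 10.2% for bipolar cells against cells of neither gate, and 10.7% for the sorts. Same-numbered libraries of the sorts deviated together (r = 0.52, 0.28 and 0.16 over genes), so the numbers were taken to pair them. The main fit of the sorts and the permutation test of the share did not use this pairing. A replicate block was run as an alternative to that fit.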

Additional observations from a re-analysis of the deposited data

Results flagged for a closer look

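Nr2e3 in bipolar cells had 1 library far from the others. It was measured at 73.41 CPM in mCherry-enriched replicate 1, whereas the other 5 libraries held 0 to 22.6 CPM. In the same library 15.0% of bipolar UMIs were in 1 barcode of more than 50000 UMIs, and without that barcode the value was 86.4 CPM. The rule behind this was applied to 24 sets of library values, in which chance alone marks about 1 in 20.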

How the results depend on the processing

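The 6 genes higher in photoreceptor lineage than in other cells, crx, otx5, nr2e3, six7, prdm1a and prdm1b, kept direction and call in every alternative. Otx2b, six7, prdm1a and prdm1b did so against bipolar cells, where the calls of six7 and prdm1a are given as a description. Crx lost its call against bipolar cells in 8 alternatives, among them no filter on low counts (-0.26), at least 20 cells (-0.34) and no library term (-0.30). Otx5 turned to -0.10 against bipolar cells with a gate ratio of 5. Nr2e3 in bipolar against other cells turned to 0.04 without a library term, 0.03 without eGFP-enriched replicate 3 (the range over libraries left out was -0.88 to 0.03), 0.18 with barcodes of at most 50000 UMIs and 0.59 against ganglion, amacrine, horizontal and glial cells alone.

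By division the signs were unsettled and none of the turned values passed except six7 at -0.53 by share of UMIs. Otx5 turned to 0.05 without the filter, 0.17 with at least 500 genes and 0.01 with at least 5 cells. Otx2b turned to -0.50, -0.22, -0.02, -0.58 and -0.10 (500 genes, mki67 alone, share of UMIs, 5 cells, at most 50000 UMIs), nrl to -0.01, -0.64 and -0.33 (RLE, gate ratio of 5, no library term), nr2e3 to -0.28 (pcna alone), six7 to -0.58, -0.14, -0.17 and -0.28 (gates at 1500 UMIs, mki67 alone, pcna alone, 5 cells) and prdm1b to 0.09 (500 genes). Genes called numbered 330, against 51 under DESeq2, 175 without the filter, 741 by share of UMIs, 0 with gates at 1500 UMIs, and 1 each with 500 genes, mki67 alone or no library term. Settings that left fewer than 2 libraries could not be fitted.

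Without the filter 2845, 3589, 5909 and 16 genes were called for photoreceptor lineage against bipolar, photoreceptor lineage against other, bipolar against other cells and the sorts. With gates read at 1500 UMIs the first of these were 979 and 898. Replicates 2 and 3 only gave 2941 for photoreceptor lineage against other cells and 18 for the sorts, and bipolar against ganglion, amacrine, horizontal and glial cells gave 1872. Leaving out 1 library gave 623 to 1967, 909 to 1808, 1766 to 3544 and 0 to 0 genes in that order of comparisons, and -0.61 to 1.79 percentage points for the share. With a replicate block for the sorts 0 genes were called, and the smallest adjusted p of the 8 genes was 0.862. This fit held 5 libraries, with mCherry-enriched replicate 2 unpaired because eGFP-enriched replicate 2 had 3 photoreceptor lineage cells. The pairs were thus those of replicates 1 and 3 alone. Between gates the library term already pairs the sums. The causes of these shifts were not tested. Depth limits nrl, the non-dividing cells and eGFP-enriched replicate 2.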
